A study of Mus musculus with 8 samples.

Results

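Foxp3, Gpr83, Ikzf2 (Helios), Ikzf4 (Eos), Lrrc32 (GARP), Nt5e (CD73), Entpd1 (CD39) and Capg are 8 genes known from regulatory T cells, the CD4 T cells that restrain immune responses. They were taken by symbol from an array study of mouse CD4 T cells with and without Bcl6, and all 8 were found among the 19938 genes tested. Each is read by 1 transcript cluster, the group of probes that reports 1 gene. Naive CD4 T cells, helper T cells that have not met antigen, were sorted from mice with a T cell-specific conditional Bcl6-/- genotype (4 arrays, here Bcl6 cKO) and from wild-type mice (4 arrays, here WT). Both groups received anti-CD3 and anti-CD28 antibodies over 24 hours, so both are activated cells, and no array of unstimulated cells was analysed here. The labels give no strain, age, sex, Cre driver or deleted exons, no sort gate and no explanation of the tag Tf0, and they do not say whether samples came from separate mice. The p-values therefore measure the spread between these samples only.

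Regulatory T cells are set up by the transcription factor Foxp3, which acts with partners such as Helios and Eos. They restrain other T cells in part by activating latent TGF-beta, which GARP holds on the cell surface, and by making extracellular adenosine, through CD39 and then CD73. Foxp3 marks this lineage in mice. Several of these proteins, CD73 among them, are also found on conventional CD4 T cells. Bcl6 is a transcriptional repressor that directs follicular helper T cells and also acts in follicular regulatory T cells. In a bulk sample, fewer cells of a type and less RNA per cell cannot be told apart.

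The promoters of the 3 members whose groups did not overlap are shown first, a choice made from these same data. None of the 3 passed the adjusted threshold given below. The RefSeq table of GRCm38.p6 holds windows of 250 bases before to 50 bases after a gene's start for 5 of the 8 members (7 windows). Foxp3 has 2 windows, at chrX:7579426-7579725 and chrX:7580233-7580532. Gpr83 lies at chr9:14859960-14860259 and Nt5e at chr9:88327359-88327658, all on the plus strand and read 5′ to 3′. Capitals mark a match to 1 of the 5 motifs searched on both strands.
Foxp3, first start: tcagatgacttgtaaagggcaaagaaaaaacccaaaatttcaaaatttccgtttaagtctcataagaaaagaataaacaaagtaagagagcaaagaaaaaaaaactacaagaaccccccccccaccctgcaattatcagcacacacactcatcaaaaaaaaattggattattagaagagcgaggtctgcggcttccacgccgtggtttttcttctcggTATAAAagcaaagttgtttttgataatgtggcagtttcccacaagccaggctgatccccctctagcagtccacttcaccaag
Foxp3, second start: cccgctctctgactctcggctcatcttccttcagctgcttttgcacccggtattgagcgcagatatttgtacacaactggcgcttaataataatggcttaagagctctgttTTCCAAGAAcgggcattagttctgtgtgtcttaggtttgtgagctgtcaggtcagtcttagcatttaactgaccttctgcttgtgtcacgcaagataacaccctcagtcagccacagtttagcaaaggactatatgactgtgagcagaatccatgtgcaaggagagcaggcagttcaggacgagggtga
Gpr83: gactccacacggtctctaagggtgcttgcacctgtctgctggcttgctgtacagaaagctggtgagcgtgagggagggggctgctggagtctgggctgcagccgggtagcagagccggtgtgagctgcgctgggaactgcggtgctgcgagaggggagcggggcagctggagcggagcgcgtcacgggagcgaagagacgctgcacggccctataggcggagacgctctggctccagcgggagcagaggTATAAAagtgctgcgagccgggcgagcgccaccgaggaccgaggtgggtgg
Nt5e: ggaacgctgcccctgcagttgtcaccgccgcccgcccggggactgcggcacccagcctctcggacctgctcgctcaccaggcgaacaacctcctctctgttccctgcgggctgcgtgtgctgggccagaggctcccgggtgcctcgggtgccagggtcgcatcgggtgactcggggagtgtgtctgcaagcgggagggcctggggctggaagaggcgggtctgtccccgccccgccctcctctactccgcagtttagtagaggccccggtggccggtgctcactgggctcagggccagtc

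The motifs were TTCNNNGAA (the shape shared by STAT sites and the known Bcl6 site), TGTGGT (the Runx core), TGTTTAC (forkhead), TGANTCA (AP-1) and TATAAA (the TATA box), and no matches overlapped. The first Foxp3 window and the Gpr83 window hold TATAAA, which 13.6% of all 32851 windows hold. The match begins at -32 from the start in Foxp3 and at -1 in Gpr83, where it spans the start itself. The second Foxp3 window holds TTCCAAGAA, a match to TTCNNNGAA, which is found in 8.30% of windows. Nt5e has no match to any of the 5, and the Foxp3 and Gpr83 windows have none to TGTGGT (16.8% of windows), TGTTTAC (3.65%) or TGANTCA (7.81%). A match describes these letters only, and nothing about binding in these cells was measured.

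The arrays carried the markers of their label. The 11 measured CD4 T cell markers, such as Cd4, Cd3e and Cd28, lay between log2 signals of 10.07 and 13.20 on all 8 arrays, though 10 of the 11 had a mean below WT. Of these 10 none passed, while Cd3d, Cd3e and Zbtb7b were lower in groups that did not overlap, as were 3.64% of all genes. B cell markers reached at most 7.63, myeloid and dendritic cell markers 8.42 and NK cell markers 8.90 (Eomes, which activated T cells also express). The defining CD8 gene Cd8a averaged 6.97 ± 0.07 in Bcl6 cKO and 6.99 ± 0.10 in WT (SD, n = 4 each), while Cd8b1 averaged 10.57 ± 0.16 in Bcl6 cKO and 11.04 ± 0.10 in WT (SD, n = 4 each). An array has no true zero, so none of these is at 0. The 13 measured genes of other tissues, such as Alb, ran from 4.58 to 8.48, and a value in that range is not shown to stand above background. Tnnt2 alone, at 8.07 to 8.48, sets the upper part of this range. The others reached at most 7.54 (Nphs1), so above 7.54 the range rests on Tnnt2. The deleted gene Bcl6 read 9.05, 8.67, 8.83 and 8.40 in Bcl6 cKO, against 8.47, 8.33, 8.56 and 8.10 in WT. Its signal was thus not reduced in Bcl6 cKO, and since the deleted exons are not named it checks no label. Bcl6 cKO therefore stands for the arrays so labelled. Signal of Y-linked genes (Kdm5d, Uty, Eif2s3y) was high on 1 Bcl6 cKO array (replicate 1) and 3 WT arrays (replicates 1 to 3), so sex and genotype are partly mixed.

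No member passed the threshold, an adjusted p of 0.05 in limma over all genes, in either direction. Among all genes 0.105% were called higher and 0.115% lower, so 0 of 8 is also what the background gives. Of the 8 members 6 had a mean below WT, and 3 of them (Foxp3, Gpr83 and Nt5e) had groups that did not overlap, with every Bcl6 cKO array below every WT array. Over all genes 3.64% had such a separation downwards. The same 3 had an unadjusted p under 0.05 in limma, as had 6.17% of all genes in that direction. In the other direction no member was separate or had such a p, against 2.33% and 4.67% of all genes. The median log2 difference, Bcl6 cKO minus WT, was -0.23 over the 8 members and 0.0025 over all genes tested. The members were chosen with these data known, so these counts describe the 8 genes and are no test of them as a set.

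**Figure D1:**
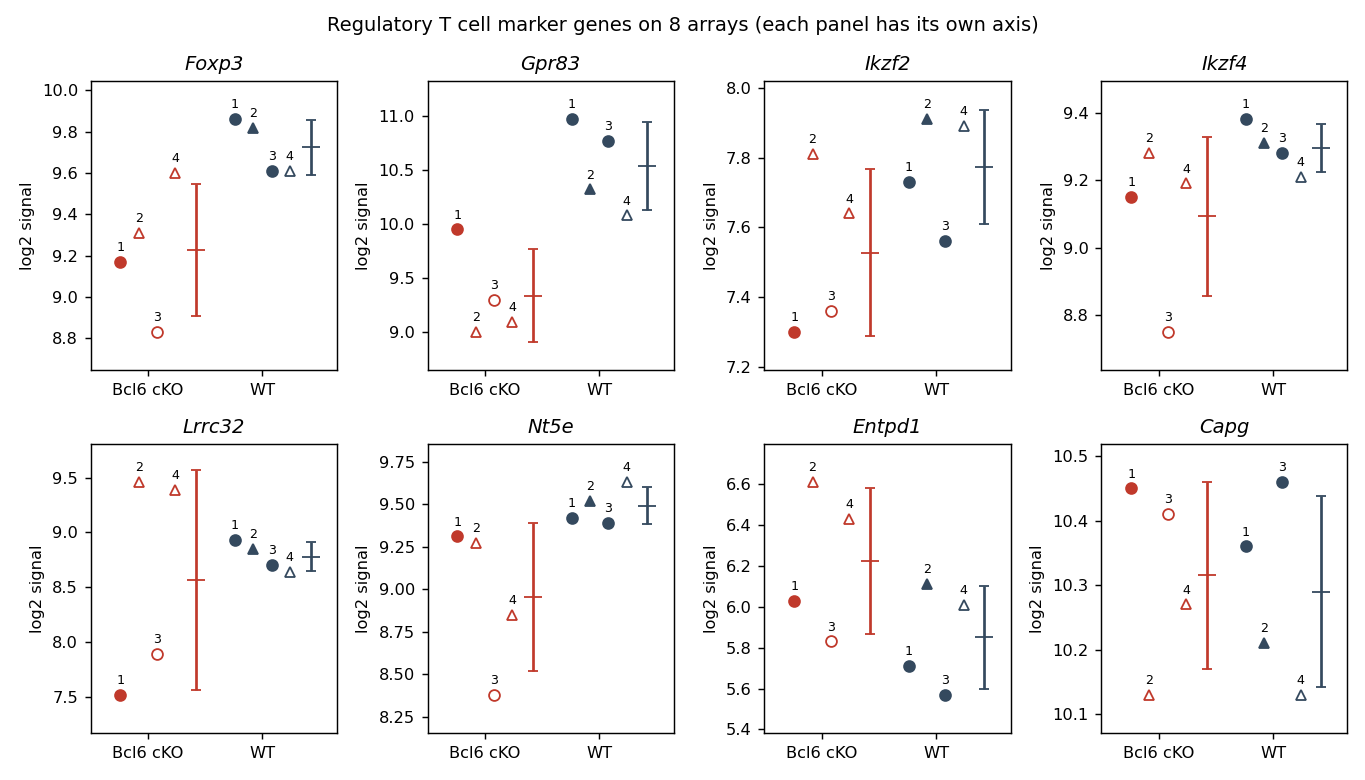
Log2 signal (y axis, own range in each panel) of the 8 genes on each array, Bcl6 cKO left in red and WT right in blue, labelled by replicate number. Circles are odd and triangles even replicate numbers, filled symbols are arrays with high Y-linked signal, and bars are the mean ± SD of 4 arrays. The groups are separate for Foxp3 (by 0.01), Gpr83 (by 0.13) and Nt5e (by 0.08), and Lrrc32 splits within Bcl6 cKO.

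Gpr83 encodes a G protein-coupled receptor that is abundant on regulatory T cells and that Foxp3 can induce in mouse T cells. Its log2 signal was 9.95, 9.0, 9.30 and 9.09 in Bcl6 cKO replicates 1 to 4, against 10.97, 10.32, 10.77 and 10.08 in WT replicates 1 to 4. The highest knockout array, replicate 1, lay 0.13 below the lowest WT array, replicate 4. The means were 9.34 ± 0.43 in Bcl6 cKO and 10.54 ± 0.41 in WT (SD, n = 4 each), a log2 difference of -1.20 (95% confidence interval -1.70 to -0.70), or 2.30-fold lower in Bcl6 cKO. This did not pass over all genes (limma adjusted p = 0.0664, against an unadjusted p of 0.000287). A two-sided exact permutation test of the 8 values gave p = 0.0286, the smallest that 4 against 4 arrays can give. At a threshold of 0.1, which 0.451% of genes passed downwards, Gpr83 was called.

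The Gpr83 call, and in part the size of its difference, depended on the terms and weights in the fit and on the arrays used. In both genotypes odd replicate numbers read higher than even ones: the even minus odd difference was -0.58 in Bcl6 cKO and -0.67 in WT. With odd or even number as a term the adjusted p in limma was 0.00518 for the same difference of -1.20, and with sex added to that term it was 0.0104 for a difference of -0.98. With sex alone as a term the difference was -0.84 and Gpr83 did not pass (adjusted p = 0.142). Where Y-linked signal was high its difference was -0.74, 1 Bcl6 cKO array against 3 WT arrays. On the other arrays it was -0.95, with 3 Bcl6 cKO arrays against 1. Gpr83 passed with array weights (-1.32, adjusted p = 0.0349) and without Bcl6 cKO replicate 1 (-1.405, adjusted p = 0.0147), and in none of the other 7 fits that left out 1 array. The labels do not say what odd and even numbers share, so its part in the result was not tested. No label gives this grouping, and the split that the term removes is seen in the values of Gpr83 themselves. The smaller p-values with this term are therefore no independent support.

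Foxp3, the gene of the transcription factor that defines the lineage, lies on the X chromosome. Its log2 signal was 9.17, 9.31, 8.83 and 9.60 in Bcl6 cKO, against 9.86, 9.82, 9.61 and 9.61 in WT. Bcl6 cKO replicate 4 was within 0.01 of the 2 lowest WT arrays, so the groups were separate by no more than the rounding of the values. The means were 9.23 ± 0.32 in Bcl6 cKO and 9.73 ± 0.13 in WT (SD, n = 4 each). The log2 difference was -0.50 (95% confidence interval -0.80 to -0.19), or 1.41-fold lower in Bcl6 cKO, and it did not pass over all genes (limma adjusted p = 0.199). A two-sided exact permutation test gave p = 0.0286, again the smallest possible. Where Y-linked signal was high the difference was -0.59, 1 Bcl6 cKO array against 3 WT arrays. On the other arrays it was -0.36, with 3 Bcl6 cKO arrays against 1. The other measured forkhead P genes had smaller log2 differences, -0.08 for Foxp1 and -0.05 for Foxp4, and none of the 4 in the family passed.

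Nt5e encodes CD73, the enzyme that turns AMP into adenosine outside the cell. The log2 signals were 9.31, 9.27, 8.38 and 8.85 in Bcl6 cKO, against 9.42, 9.52, 9.39 and 9.63 in WT. Replicates 1 and 2 of Bcl6 cKO lay just under WT, and replicates 3 and 4 well below it. The means were 8.95 ± 0.43 in Bcl6 cKO and 9.49 ± 0.11 in WT (SD, n = 4 each), a log2 difference of -0.54 (95% confidence interval -0.92 to -0.15) that did not pass (limma adjusted p = 0.278). The two-sided exact permutation p was 0.0286. Without Bcl6 cKO replicate 3 the difference was -0.35. Where Y-linked signal was high it was -0.13, with replicate 1 as the lone Bcl6 cKO array, and on the others -0.80, with replicate 4 as the lone WT array. A test of the difference between these did not pass (interaction in limma, adjusted p = 0.512).

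Entpd1 encodes CD39, which acts before CD73 by removing phosphates from ATP and ADP. Its mean was above that of WT, unlike Nt5e, at 6.03, 6.61, 5.83 and 6.43 in Bcl6 cKO, against 5.71, 6.11, 5.57 and 6.01 in WT. The groups overlapped, and in both genotypes even replicate numbers were higher, by 0.59 in Bcl6 cKO and 0.42 in WT. The log2 difference of 0.375 (95% confidence interval -0.0012 to 0.75) did not pass (limma adjusted p = 0.462), and it was 0.247 without Bcl6 cKO replicate 2. All 8 values lay within the range of the genes of other tissues, so Entpd1 is not shown to stand above background and no fold is given. Of the 12 measured genes of the adenosine axis, which also covers adenosine uptake and removal, 6 were above and 6 below WT and none passed. Dpp4, whose product CD26 binds adenosine deaminase, had a log2 difference of -0.18 (adjusted p = 0.265) and Slc29a2, a nucleoside transporter, 0.30 (adjusted p = 0.284).

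Ikzf2 and Ikzf4 encode Ikaros family zinc finger factors that stabilise the regulatory T cell state, and Eos binds Foxp3 in the mouse. Ikzf4 read 9.15, 9.28, 8.75 and 9.19 in Bcl6 cKO, against 9.38, 9.31, 9.28 and 9.21 in WT. Bcl6 cKO replicate 3 was lowest, while replicate 2 lay among the WT arrays. The log2 difference was -0.20 (95% confidence interval -0.43 to 0.02, limma adjusted p = 0.521). It was -0.088 without Bcl6 cKO replicate 3, and -0.0775 when sex was fitted together with odd or even numbering. Ikzf2 read 7.30, 7.81, 7.36 and 7.64 in Bcl6 cKO, against 7.73, 7.91, 7.56 and 7.89 in WT, all within the range of the genes of other tissues. Its groups overlapped, with a difference of -0.245 (95% confidence interval -0.50 to 0.01, limma adjusted p = 0.489). Only its Bcl6 cKO replicates 1 and 3 lay below 7.54, above which the range of the genes of other tissues rests on Tnnt2. All 5 Ikaros family genes had means below WT and none passed. Ikzf1, the founding member, had a log2 difference of -0.17 (limma adjusted p = 0.423).

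Lrrc32 encodes GARP, the surface anchor of latent TGF-beta on activated regulatory T cells. Its log2 signal was 7.52, 9.46, 7.89 and 9.39 in Bcl6 cKO, against 8.93, 8.85, 8.70 and 8.64 in WT. Bcl6 cKO thus held both the 2 highest and the 2 lowest of the 8 arrays. Its replicates 2 and 4 lay above all WT arrays and replicates 1 and 3 below them. The values of replicates 1 and 3 lay within the range of the genes of other tissues and are not shown to stand above background. For replicate 3 this rests on Tnnt2 alone, since the others of those genes reached at most 7.54. The SD was 1.005 in Bcl6 cKO and 0.13 in WT (n = 4 each), a 7.53-fold wider spread that was not tested. This ratio ran from 0.98 (Capg) to 4.00 (Nt5e) in the other members. It was 9.04 for Cd83, a surface protein gene, and 7.80 for Tnnt2, so so wide a spread is not particular to Lrrc32. The means of Lrrc32, 8.57 in Bcl6 cKO and 8.78 in WT, differed by -0.215 (95% confidence interval -1.06 to 0.63), and this did not pass (limma adjusted p = 0.909). Of the 2 lowest arrays, replicate 1 had high and replicate 3 low Y-linked signal. Replicate 1 is the only Bcl6 cKO array with high Y-linked signal, and the part of sex in this split was not tested. The difference turned positive without Bcl6 cKO replicate 1 (0.13) or 3 (0.01).

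Of 20 measured genes of TGF-beta activation and signalling, Lrrc32 included, 9 were above and 11 below WT and none passed. Tgfbr2, the receptor chain that binds TGF-beta, was 10.53 ± 0.10 in Bcl6 cKO and 10.88 ± 0.08 in WT (SD, n = 4 each). Its difference of -0.355 had a limma adjusted p of 0.0561, and its groups did not overlap. The ligand gene Tgfb1 had a log2 difference of -0.16 (adjusted p = 0.486) and the signal transducer Smad4 -0.17 (adjusted p = 0.302).

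Capg encodes an actin filament capping protein of the gelsolin family that is high in regulatory T cells. It read 10.45, 10.13, 10.41 and 10.27 in Bcl6 cKO, against 10.36, 10.21, 10.46 and 10.13 in WT. The groups covered the same range, and in both the 2 odd-numbered arrays were higher than the 2 even-numbered ones. The log2 difference was 0.025 (95% confidence interval -0.17 to 0.22, limma adjusted p = 0.964), which leaves out changes as large as those of Gpr83, Foxp3 and Nt5e. Of the 11 measured gelsolin family and actin capping genes none passed, and their log2 differences ran from -0.11 to 0.07.

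**Figure D2:**
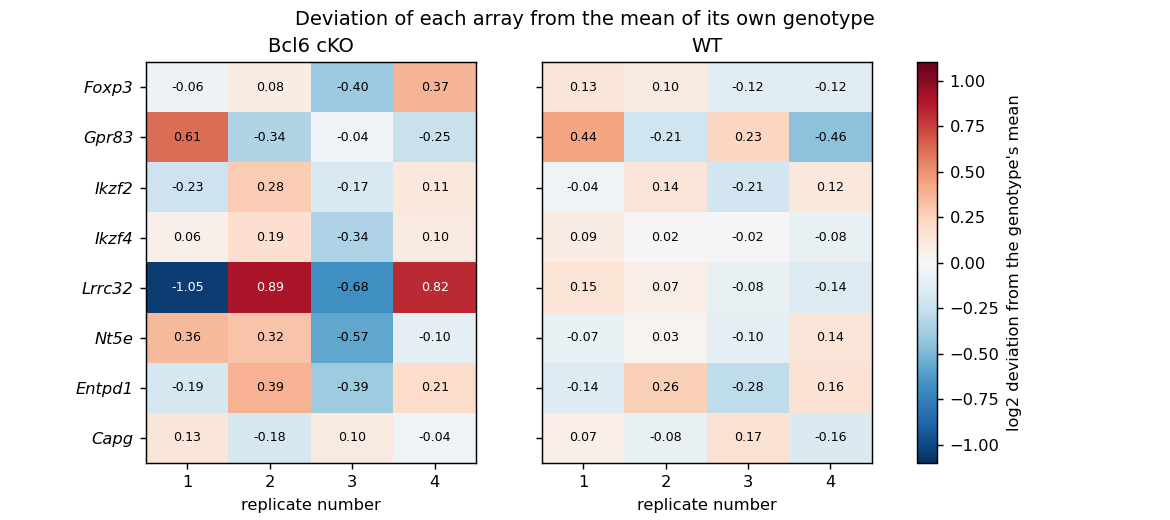
Deviation of each array from the mean of its own genotype (log2, colour and number), for 8 genes in rows and 4 replicate numbers in columns, Bcl6 cKO left and WT right. Gpr83 and Capg are above their mean, or close to it, on odd numbers in both genotypes, Ikzf2 and Entpd1 on even numbers, and Lrrc32 splits by odd and even number in Bcl6 cKO with a WT range of 0.29.

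The 8 genes did not all vary together from array to array. Deviations from each genotype's own mean were compared over the 8 arrays by Pearson's r, as a description. Every pair among Foxp3, Ikzf2, Ikzf4, Lrrc32, Nt5e and Entpd1 had a positive r, from 0.14 (Lrrc32 with Nt5e) to 0.95. With these genes Capg had a negative r throughout, and Gpr83 had r from -0.79 to 0.07. Foxp3 followed Ikzf4 (r = 0.82), Lrrc32 (0.72) and Entpd1 (0.65), and was unrelated to Gpr83 (-0.12). Gpr83 followed Capg (r = 0.85) and ran against Ikzf2 (-0.79) and Entpd1 (-0.70). Ikzf2 ran with Entpd1 (r = 0.95) and against Capg (-0.96). The odd and even numbers described above are shared by these pairs, and all arrays went through the same normalization. All values of Ikzf2 and Entpd1 lay within the range of the genes of other tissues. Their r are therefore not shown to describe more than background signal.

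Likeness was searched among 9408 annotated protein-coding or long non-coding RNA genes of at least median signal, leaving out predicted models, clones, antigen receptor segments and olfactory or vomeronasal receptors. Those most like Foxp3 in these deviations were Cela2a (r = 0.97), Rln3 (0.92), Atrnl1 (0.90), Piezo1 (0.89) and Tnfrsf18 (0.89, n = 8 arrays each). Tnfrsf18 encodes GITR, a receptor abundant on regulatory T cells and also induced on activated T cells, and it read 12.13, 12.18, 12.08 and 12.28 in Bcl6 cKO, against 12.36, 12.31, 12.30 and 12.20 in WT. Cela2a, a pancreatic elastase gene, stayed between 7.68 and 7.77 on all arrays, so its likeness rests on differences near the rounding of the values. The genes most like Gpr83 were Cldn10 (r = 0.99), Atp8b4 (0.98), Nsg2 (0.97), Bcl2a1c (0.97) and Cnn2 (0.97, n = 8 arrays each). Of these Nsg2 had groups that did not overlap, at 9.35, 8.91, 9.12 and 8.98 in Bcl6 cKO, against 9.79, 9.62, 9.78 and 9.48 in WT (log2 difference -0.58, limma adjusted p = 0.0541). Cldn10, a claudin gene, had a difference of -1.295 with overlapping groups (limma adjusted p = 0.170). No gene in either set passed the threshold.

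Other genes known from regulatory T cells were measured beside the 8. Of 30 such genes 17 were above and 13 below WT, with a median log2 difference of 0.05, and 1 was called. It was Nrp1, which encodes neuropilin-1, and it rose in Bcl6 cKO to 7.54, 8.05, 8.03 and 8.08, against 7.29, 7.03, 6.91 and 7.21 in WT (log2 difference 0.815, limma adjusted p = 0.0358). All 8 values lay within the range of the genes of other tissues, 4.58 to 8.48, so Nrp1 is not shown to stand above background. Above 7.54 that range rests on Tnnt2 alone, and Bcl6 cKO replicates 2 to 4 of Nrp1 lay above 7.54. The Nrp1 call was lost with sex as a term (adjusted p = 0.110) and in 7 of the 8 fits without 1 array (adjusted p up to 0.141), all but the one without Bcl6 cKO replicate 1. Nrp1 is commonly used to mark thymus-derived regulatory T cells, and its difference was opposite in sign to those of Foxp3 and Gpr83. The next by p were Tnfrsf1b, the type 2 TNF receptor gene (-0.28, adjusted p = 0.395), and the cytokine gene Il10 (0.47, adjusted p = 0.442), whose values lay in the background range. Il2ra, the gene of CD25, averaged 13.15 ± 0.12 in Bcl6 cKO and 13.04 ± 0.03 in WT, and Ctla4 averaged 11.10 ± 0.16 in Bcl6 cKO and 11.17 ± 0.14 in WT (SD, n = 4 each). Activated CD4 T cells of any kind express both.

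**Figure D3:**
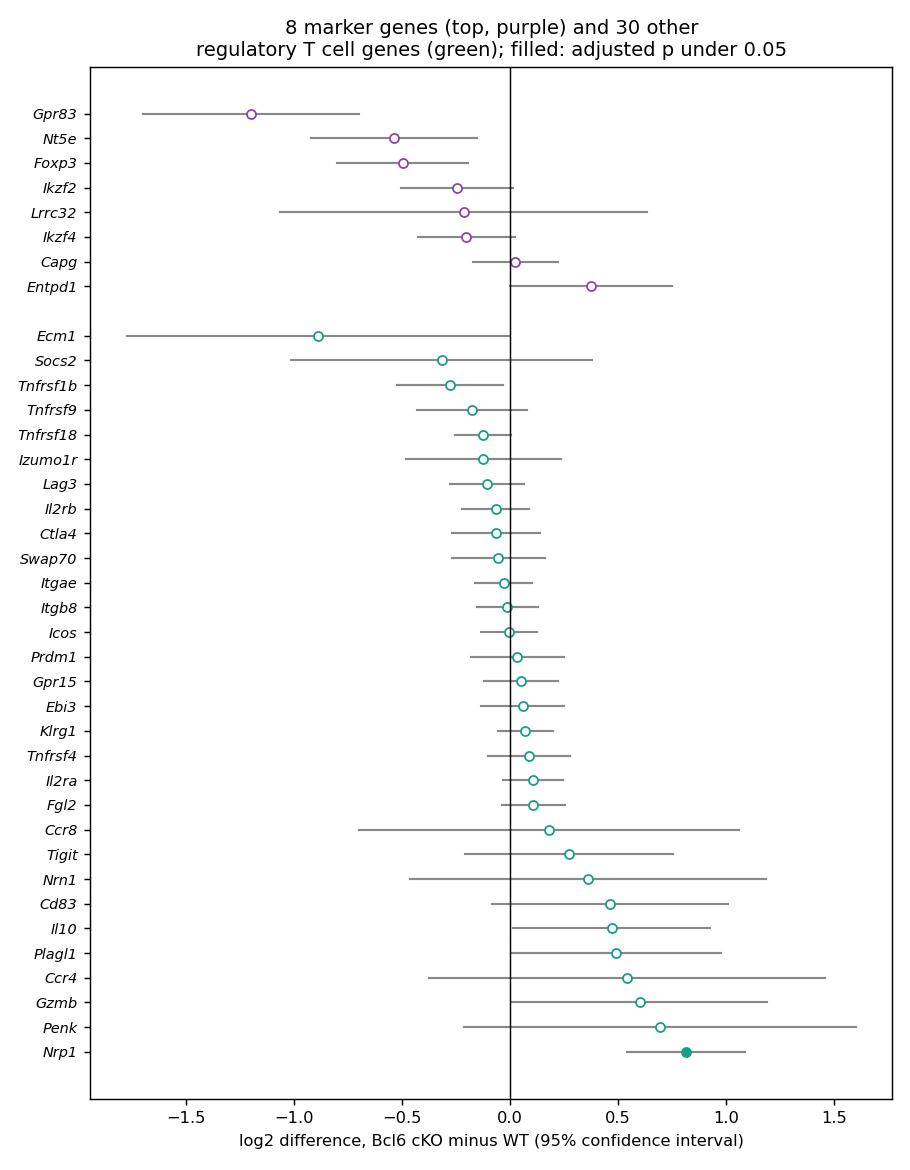
Log2 difference, Bcl6 cKO minus WT (x axis), with its 95% confidence interval from limma, for the 8 marker genes (top, purple) and 30 other regulatory T cell genes (green). Nrp1 is the 1 filled symbol (adjusted p under 0.05), and the intervals of Gpr83, Foxp3 and Nt5e lie below 0.

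Factors that act at the Foxp3 locus were not called either. Of 30 measured, 14 were above and 16 below WT, with a median log2 difference of -0.01. The smallest p-values were those of Ets1 (-0.21, limma adjusted p = 0.178), which binds a Foxp3 enhancer, Klf2 (-0.63, adjusted p = 0.283) and Smad4, given above. Of 9 measured genes known to be low in regulatory T cells, 4 were above and 5 below WT and none passed. Actn1, an actin crosslinking gene, was lower without overlap (-0.315, adjusted p = 0.0658), Dapl1 was higher with overlap (0.57, adjusted p = 0.131) and Lef1, a transcription factor of naive T cells, was lower without overlap (-0.23, adjusted p = 0.177).

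Markers of activation and of other cells were set beside these values, and none of them passed. Cd44, which marks activated and memory T cells, was 8.76 ± 0.43 in Bcl6 cKO and 7.94 ± 0.36 in WT (SD, n = 4 each; log2 difference 0.815, limma adjusted p = 0.178). The WT values of Cd44, 7.61 to 8.42, and that of Bcl6 cKO replicate 1, 8.33, lay within the range of the genes of other tissues. These are not shown to stand above background. All of them lie above 7.54, where that range rests on Tnnt2 alone. Of 10 activation genes 7 were above and 3 below WT and none passed. Their mean per array lay between 11.9 and 12.2 in Bcl6 cKO, against 11.8 to 12.0 in WT. Cd8b1 had a log2 difference of -0.47 (adjusted p = 0.0541) and the Fc receptor gene Fcgr3 one of -0.32 (adjusted p = 0.131), both without overlap, while Cd8a differed by -0.02. The values of Fcgr3 and Cd8a lay within the range of the genes of other tissues, so neither is shown to stand above background. The mean of the 11 CD4 T cell markers lay between 12.06 and 12.14 in Bcl6 cKO, against 12.17 to 12.20 in WT, with a median log2 difference of -0.0875. The mean of the 6 B cell markers lay between 6.19 and 6.34 in Bcl6 cKO, against 6.18 to 6.26 in WT. That of the 12 myeloid and dendritic markers lay between 6.44 and 6.68 in Bcl6 cKO, against 6.48 to 6.58 in WT. The part of any of these in the Gpr83, Foxp3 and Nt5e values was not tested.

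**Figure D4:**
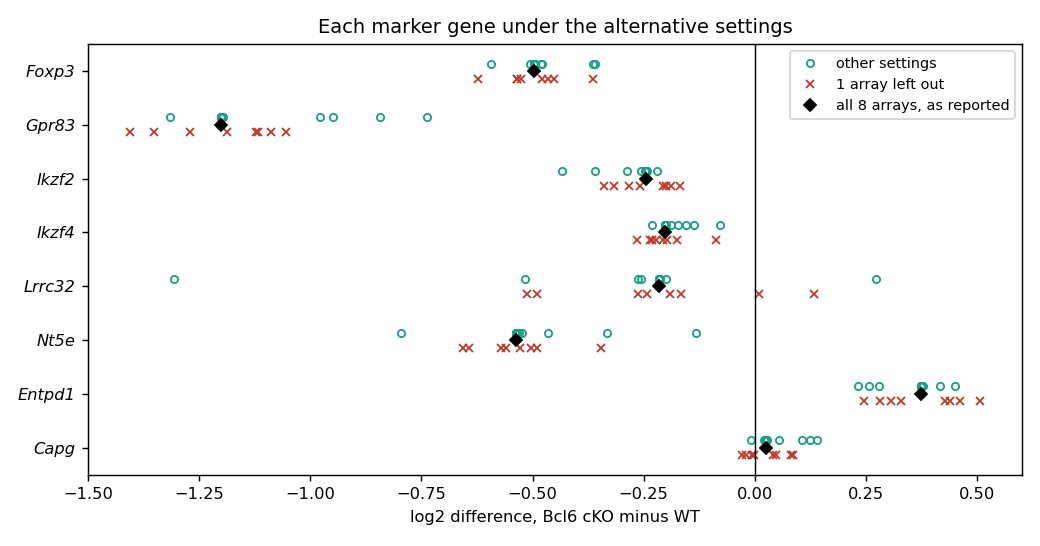
Log2 difference, Bcl6 cKO minus WT (x axis), of each of the 8 genes with all 8 arrays (black diamonds), with 1 array left out (red crosses) and under the other settings (green circles). Foxp3, Gpr83, Ikzf2, Ikzf4 and Nt5e stay below 0 throughout, Entpd1 stays above it, and Lrrc32 and Capg cross it.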

How the data were processed

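Total RNA of 8 samples (100 ng each, 4 Bcl6 cKO and 4 WT) was labelled with biotin by the Affymetrix whole-transcript protocol, per the labels. The authors deposited log2 signals for each transcript cluster, made with RMA and Partek per the submitters' processing notes. Their versions and settings and the genome build are not stated. That the values are log2 was read from their range and from RMA. RMA brings arrays to 1 distribution and lowers differences of dim genes. Levels of different genes are not compared, since probes differ in brightness.

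Of 35556 clusters 21789 have 1 gene symbol in the platform annotation, 1621 several and 12146 none. Symbols were updated by Entrez ID (21698 matched), and the brightest cluster was kept per gene (19938 genes). Unmatched list entries were not analysed here. Limma 3.58.1 in R 4.3.3 (lmFit, eBayes, no covariate) gave p-values with Benjamini-Hochberg adjustment over every gene, at 0.05. Alternatives were other variance moderation, array weights, scaling, filters, cluster choice, replicate block, sex and number terms, fits within arrays of high or low Y-linked signal (spread pooled over 8 arrays), permutation, thresholds and each array left out. The method was tested on simulated data. Arrays have no read depth, and 4 per group set the precision.

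The members and the 18 gene lists were chosen with earlier results of these data known. Named genes are Bcl6, the members, and the 5 genes most like Foxp3 and Gpr83. From each list they are the genes past the threshold (at most 6) or else up to 3 with the smallest p. Of lists for other cells, activation, capping and sex only genes beside a result are given. Il2ra, Ctla4, Cd4, Cd3e, Cd28, Eomes and Alb are named as known markers, and Tnnt2 and Nphs1 for the background range. Over all genes, deviations from the own genotype's mean gave r = 0.07 to 0.21 for same-numbered arrays of the 2 groups. Arrays of unlike number gave r from -0.24 to 0.19. Numbers were not treated as pairs in the main fit. The replicate block, among the alternatives, does treat them so, and Gpr83 passed with it (limma adjusted p = 0.00515).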

Additional observations from a re-analysis of the deposited data

How the results depend on the processing

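No member was called higher under any of the 25 alternatives. The count called lower, 0 as reported, was 1 (Gpr83) with array weights, the replicate block, odd or even number as a term, sex with odd or even number, and a threshold of 0.1. It was 3 (Foxp3, Gpr83 and Nt5e) by exact permutation tests, whose p of 0.0286 is unadjusted. That p restates that their groups did not overlap, which held downwards for 3.64% of all genes. The count called lower was 0 to 1 when 1 array was left out. The odd or even grouping is in no label, and the values of Gpr83 themselves show the split that this term removes. The differences of Gpr83 were -1.32 with array weights, -1.20 with the replicate block (adjusted p = 0.00515), -1.20 with odd or even number, -0.98 with sex and odd or even number and -1.405 to -1.055 with 1 array left out. Those of Foxp3 (-0.50) and Nt5e (-0.54) are the same in the permutation test, as is that of Gpr83 (-1.20), which also holds at the threshold of 0.1. The replicate block changed no other member's call, and with it Nrp1 did not pass (adjusted p = 0.0670). Lrrc32 reversed to 0.27 within the arrays without Y-linked signal, and ran from -0.51 to 0.13 with 1 array left out. Capg reversed to -0.0094 with array weights, and ran from -0.028 to 0.087 with 1 array left out. The cause was not tested. Over all genes limma called 21 higher and 23 lower as reported. Over the settings that use limma calls these counts ran from 0 to 42 higher and from 0 to 100 lower. The exact permutation test was not run over all genes and is not in these ranges. The other 6 members kept the sign of their differences under the alternatives in which they were tested, and Entpd1 was not tested under the 2 filters on dim genes. Entpd1 and Ikzf2 lie in the range of genes of other tissues and are not shown to stand above background. Above 7.54 that range rests on Tnnt2 alone, and most Ikzf2 values lie there.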

Other observations

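Genes that follow the split of Lrrc32 within Bcl6 cKO were looked for after its values were seen. Of 9408 annotated protein-coding or long non-coding RNA genes of at least median signal, leaving out predicted models, clones, antigen receptor segments and olfactory or vomeronasal receptors, those with the highest Pearson's r to Lrrc32, over deviations from each genotype's mean on 8 arrays, were Ddhd2 (0.98), Anks1 (0.98), Il3 (0.97), Nr6a1 (0.97) and Cd83 (0.97). The cytokine gene Il3 read 7.05, 10.97, 8.15 and 10.25 in Bcl6 cKO, against 6.87, 7.47, 6.75 and 6.41 in WT. Cd83, a surface protein induced on activated lymphocytes, read 7.93, 9.36, 8.34 and 9.01 in Bcl6 cKO, against 8.22, 8.20, 8.27 and 8.10 in WT. Both were highest on Bcl6 cKO replicates 2 and 4, as was Lrrc32, and stayed within a narrower range in WT. All WT values of Il3 and Cd83, and those of Bcl6 cKO replicates 1 and 3, lay within the range of the genes of other tissues. Above 7.54 that range rests on Tnnt2 alone. These values are not shown to stand above background, so the narrow WT range is not shown to be a steady level. Neither gene differed between the genotypes past the threshold (limma adjusted p = 0.265 for Il3 and 0.548 for Cd83).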
